A study of Rattus norvegicus with 6 samples.

Results

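The genes described here are 8 members of the MHC class I peptide processing pathway, B2m, Tap1, Tap2, Tapbp, Psmb8, Psmb9, Psmb10 and Nlrc5, chosen by name from the 28282 gene symbols in the count tables. They were followed in single nuclei of the ileum of 6 male wild-type Sprague-Dawley rats, an outbred stock, obtained at 6 weeks of age and kept 7 days before surgery. In the 3 rats of the SAP group, severe acute pancreatitis was induced by running 3% sodium taurocholate backwards into the pancreatic duct at 0.1 mL per 100 g of body weight, with the duct clamped for 5 min. The 3 rats of the CON group had a sham laparotomy and no infusion, so anaesthesia and opening of the abdomen were common to both groups, and all ilea were taken 24 h later. Each rat gave 1 library, and the labels give batch 1 for all 6. Of 90461 barcodes, 40970 passed as nuclei, and these held 149426 unique molecular identifiers (UMIs, 1 per captured transcript) of the 8 genes, from 3864 for Psmb10 to 90778 for B2m.

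MHC class I molecules show peptides from inside the cell to CD8 T cells. The peptides are cut by the proteasome, and under interferon the catalytic subunits Psmb5, Psmb6 and Psmb7 of the standard proteasome are replaced by Psmb8, Psmb9 and Psmb10, which form the immunoproteasome. The transporter made of Tap1 and Tap2 carries peptides into the endoplasmic reticulum, where tapasin (Tapbp) holds the empty class I molecule beside the transporter until a peptide is bound. B2m, beta-2-microglobulin, is the light chain of every class I molecule, and the heavy chains are encoded in the rat by the RT1 genes. Nlrc5 is the transactivator that drives transcription of the class I heavy chains and of several genes of this pathway. The intestinal epithelium carries class I molecules and lies next to many intraepithelial T cells.

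The promoter windows of RefSeq (build GRCr8, 250 bases before to 50 bases after the transcription start) held 7 of the 8 genes. This build is not the mRatBN7.2 that the submitters' processing notes name, and no coordinate was carried between them. The windows of 4 genes are shown, B2m as the light chain, Tap1 and Psmb9 because their starts lie head to head, 457 bases apart, and Tap2 because its fitted difference between SAP and CON was the largest of the 8 over all nuclei. They are B2m at chr3:129549080-129549379 on the plus strand, Tap1 at chr20:4668494-4668793 on the minus strand, Psmb9 at chr20:4668750-4669049 on the plus strand and Tap2 at chr20:4652247-4652546 on the minus strand. Capitals mark matches, on either strand, to the letters searched.
B2m: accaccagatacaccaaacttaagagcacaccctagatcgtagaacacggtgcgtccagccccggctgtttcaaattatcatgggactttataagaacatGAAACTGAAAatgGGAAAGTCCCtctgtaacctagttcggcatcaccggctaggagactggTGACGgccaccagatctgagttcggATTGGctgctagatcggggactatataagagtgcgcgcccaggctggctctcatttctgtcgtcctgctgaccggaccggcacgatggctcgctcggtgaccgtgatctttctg
Tap1: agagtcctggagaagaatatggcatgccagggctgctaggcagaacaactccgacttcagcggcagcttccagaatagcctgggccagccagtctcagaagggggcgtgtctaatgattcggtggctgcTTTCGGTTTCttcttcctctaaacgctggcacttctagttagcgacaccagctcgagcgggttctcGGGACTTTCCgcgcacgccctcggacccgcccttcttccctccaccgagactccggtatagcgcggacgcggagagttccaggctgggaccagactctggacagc
Psmb9: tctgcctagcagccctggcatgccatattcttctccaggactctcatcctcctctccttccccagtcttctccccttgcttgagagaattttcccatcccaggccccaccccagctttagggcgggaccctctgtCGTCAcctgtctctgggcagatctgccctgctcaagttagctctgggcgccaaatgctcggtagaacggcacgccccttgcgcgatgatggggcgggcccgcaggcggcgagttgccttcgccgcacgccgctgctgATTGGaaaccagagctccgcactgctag
Tap2: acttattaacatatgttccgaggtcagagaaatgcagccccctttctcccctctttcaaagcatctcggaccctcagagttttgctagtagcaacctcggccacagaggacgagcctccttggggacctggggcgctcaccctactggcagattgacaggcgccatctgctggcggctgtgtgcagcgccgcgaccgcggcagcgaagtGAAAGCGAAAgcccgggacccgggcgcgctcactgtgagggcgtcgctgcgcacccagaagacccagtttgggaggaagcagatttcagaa
The core of the interferon-stimulated response element, GAAA, any 2 bases and GAAA again, was in the windows of 6 of the 7 genes, all but Psmb9, and in 3.92% of the 33469 windows of all genes. In B2m it lay 150 to 141 bases before the start, in Tap1 121 to 112 bases and in Tap2 41 to 32 bases before it. The match of Tap1 lies between the starts of Tap1 and Psmb9, but beyond the 250 bases searched before the Psmb9 start. The kappa B letters, GGGA, any base and TTTCC, were in 3 of the 7 (B2m, Tap1 and Tapbp) and in 0.362% of all windows. CCAAT, the letters of the Y box of class I promoters, was in 3 of the 7 (B2m, Psmb8 and Psmb9) and in 37.5% of all windows. It lay 64 to 60 bases before the start in B2m and 73 to 69 bases before it in Psmb8. In Psmb9 it lay at positions 23 to 27, downstream of the start and so not where a Y box lies in B2m. TGACG, part of the X2 box of class I promoters, was in B2m and Psmb9, 2 of the 7, and in 21.2% of all windows. The interferon gamma element TTCNNNGAA was in Psmb8 alone, 1 of the 7, and in 8.87% of all windows. The windows of Tap1 and Psmb9 share 44 bases, none of them within a match. These are matches of letters and not measured binding sites.

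The libraries held 3189 to 9246 passing nuclei, with median depths of 1516 to 1889.5 UMIs per nucleus, and 195 to 746 barcode names were shared by any 2 libraries. CON rat 1 and SAP rat 1 stood apart from the others, since ribosomal protein genes took 2.98% and 3.52% of their UMIs and 0.663% to 1.66% in the other 4 libraries. The tables of CON rat 2 and SAP rat 1 also listed barcodes under 1000 UMIs, which the other 4 did not. Nuclei fell into 26 clusters and were named from marker genes, with names ending in -like. Of the tested classes, 9 were counted as epithelial (31390 nuclei), 3 as immune (T-, B- and macrophage-like) and 4 as stromal, among them SMC-like nuclei (smooth muscle cells) and NAC-like nuclei (neuron-associated cells). The immune and stromal compartments held 5111 and 3624 nuclei, with the untested neutrophil-, mesothelial- and fat-like classes counted in. Genes of the bile acid handling enterocytes of the ileum led 2 of the 3 enterocyte-like clusters, Fgf19 in cluster 5 and Fabp6 in cluster 14. The mean share of enterocyte-like nuclei was 7.67% in CON rats and 17.7% in SAP rats, and that of TA-like nuclei, those of cycling crypt cells, was 23.3% and 14.0%.

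For SAP against CON, UMIs were summed per rat and tested with edgeR's quasi-likelihood fit. To be called, a gene needed an adjusted p below 0.05 and a log2 fold change of 0.5 or more in either direction. Levels are in CPM, the UMIs of a gene scaled to a common total of UMIs in the library or class. Over all nuclei, 0 of the 8 members were called, and 0% of the 19187 genes tested were. At an unadjusted p under 0.05 in the edgeR test and a higher value in SAP there was 1 member, Tap2, against 3.97% of all genes. The 8 fitted log2 fold changes had a median of 0.24, against 0.025 over all genes, and 6 of the 8 were higher in SAP, as were 52.2% of all genes. Between the groups 0 members lay without overlap and higher in SAP, against 4.53% of all genes.

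The transporter was measured in every rat by both of its chains. Tap2 stood at 20.7, 31.0 and 46.4 CPM in CON rats 1, 2 and 3 and at 31.5, 57.1 and 67.5 CPM in SAP rats 1, 2 and 3. Each SAP rat was higher than the CON rat of the same number, but SAP rat 1 lay below CON rat 3, so the groups overlapped. The means were 32.7 ± 12.9 and 52.0 ± 18.5 CPM (SD, n = 3), a fitted log2 fold change of 0.69 (standard error 0.28), with an unadjusted p of 0.0416 and an adjusted p of 0.577 in edgeR. With the replicate number as a block it was 0.67 (standard error 0.23, unadjusted p = 0.0247 and adjusted p = 0.386 in edgeR). Among the 4 libraries without barcodes under 1000 UMIs the mean of Tap2 was 33.5 CPM in CON and 62.3 CPM in SAP, 2 rats each, and in the pair that listed such barcodes it was 31.0 and 31.5 CPM, 1 rat each. Tap1 stood at 100, 173 and 87.1 CPM in CON and at 73.0, 127 and 131 CPM in SAP. Here the highest rat was in CON and the lowest in SAP, and the fitted log2 fold change was −0.17 (standard error 0.35). Those 2 rats, CON rat 2 and SAP rat 1, were the pair that listed barcodes under 1000 UMIs. Among the other 4 libraries the mean of Tap1 was 93.8 CPM in CON and 129 CPM in SAP.

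B2m varied more within the groups than between them. It stood at 1350, 397 and 609 CPM in CON and at 1403, 869 and 728 CPM in SAP, and the highest rat of each group was number 1, the libraries with the largest ribosomal share. The fitted log2 fold change was 0.28 with a standard error of 0.62. Among the 4 libraries without barcodes under 1000 UMIs the mean of B2m was 979 CPM in CON and 798 CPM in SAP. In the pair that listed such barcodes it was 397 and 1403 CPM. The share of mitochondrial UMIs, as the median over nuclei, came to 0.700%, 0.125% and 0.218% for CON rats and to 1.84%, 1.29% and 0.387% for SAP rats, so the lowest and the highest rats were the same for that share and for B2m. The part of these shares in the B2m values was not tested. Without CON rat 1 the log2 fold change of B2m was 1.27, without CON rat 2 it was −0.11, without CON rat 3 it was 0.00077 and without SAP rat 1 it was −0.14. Tapbp stood at 112, 91.5 and 94.5 CPM in CON and at 117, 153 and 94.4 CPM in SAP, with SAP rat 2 above the other 5 rats (log2 fold change 0.29, standard error 0.37).

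**Figure D1:**
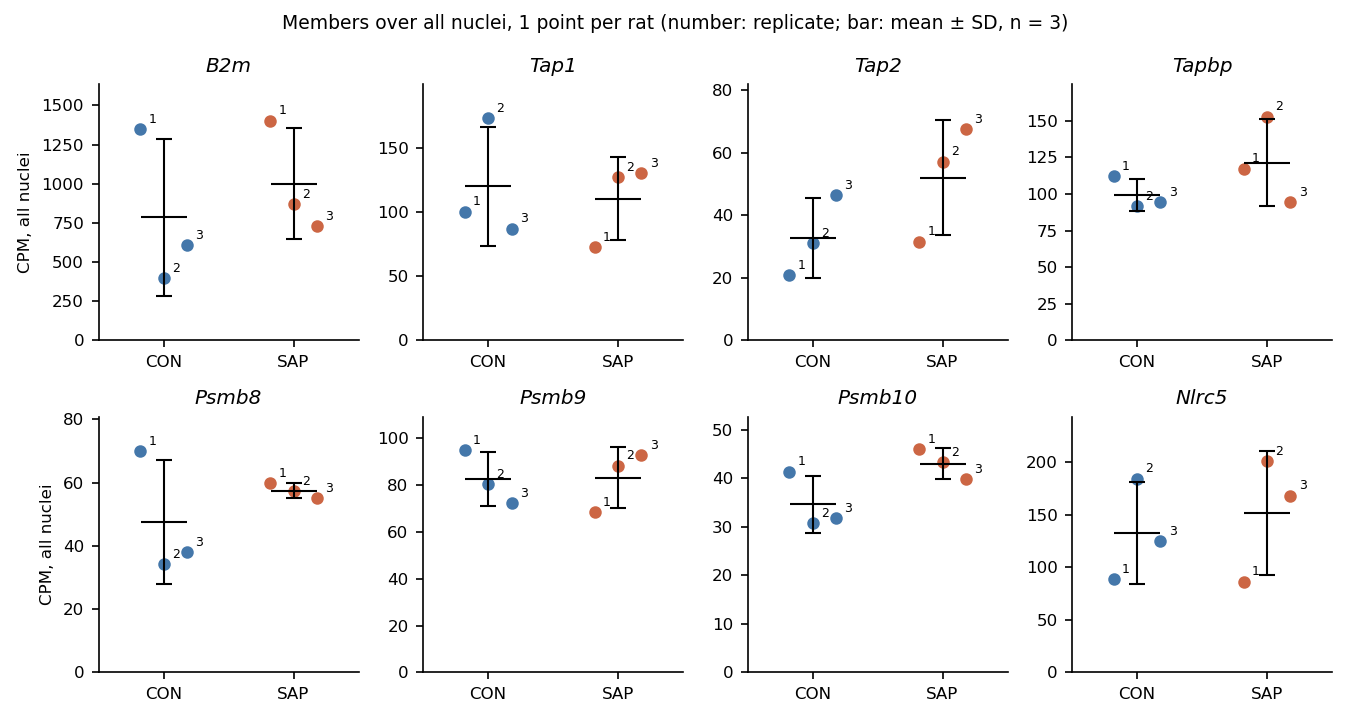
Level of each of the 8 members over all nuclei of a rat, in CPM on linear axes that start at 0 and differ between panels; points are single rats with their replicate number, and bars are the mean and SD of 3 rats. CON and SAP overlap in every panel, and rat 1 of each group is the highest of its group for B2m and the lowest of its group for Nlrc5.

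The immunoproteasome subunits overlapped between the groups. Psmb8 stood at 70.1, 34.3 and 38.0 CPM in CON and at 59.8, 57.3 and 55.1 CPM in SAP, where CON rat 1 was the highest of all and the 3 SAP rats lay above the other CON rats (log2 fold change 0.19, standard error 0.44). Psmb9 stood at 82.5 ± 11.4 CPM in CON and 83.1 ± 12.9 CPM in SAP (SD, n = 3; log2 fold change −0.06, standard error 0.30). The means of Psmb10 were 34.6 ± 5.84 and 43.0 ± 3.13 CPM (SD, n = 3), with only SAP rat 3, at 39.7 CPM, below the highest CON rat, at 41.3 CPM (log2 fold change 0.28, standard error 0.36). Nlrc5, the transactivator, stood at 88.7, 184 and 125 CPM in CON and at 86.3, 201 and 168 CPM in SAP. Rat 1 was the lowest of each group, opposite to B2m, and the log2 fold change was 0.20 (standard error 0.35). Among the 4 libraries without barcodes under 1000 UMIs the mean of Nlrc5 was 107 CPM in CON and 184 CPM in SAP. In the pair that listed such barcodes it was 184 and 86.3 CPM. The direction differed between these sets of libraries for B2m, Tap1, Psmb9 and Nlrc5, and not for Tap2, Tapbp, Psmb8 and Psmb10.

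In a bulk sum over all nuclei, more nuclei of a type and more RNA per nucleus cannot be told apart, so the comparison was repeated within compartments. In epithelial nuclei 0 members were called, against 0% of 17123 genes, 1 had an unadjusted p under 0.05 with a higher value in SAP (Tap2), against 5.1% of genes, and 0 lay without overlap and higher in SAP, against 5.45%. Tap2 stood there at 19.1, 31.0 and 45.1 CPM in CON and at 31.0, 57.3 and 60.8 CPM in SAP, with the same order of rats as over all nuclei. Its log2 fold change was 0.66 (standard error 0.28, unadjusted p = 0.0475 and adjusted p = 0.441 in edgeR). The other 7 ranged from −0.17 for Tap1 to 0.31 for Nlrc5. The median of the 8 was 0.22, against −0.0027 over all genes, and 6 of the 8 were higher in SAP, against 49.8% of genes. With each class weighted by its share over all 6 libraries, in place of the shares of the rat itself, Tap2 stood at 33.8 ± 12.9 CPM in CON and 50.6 ± 16.6 CPM in SAP (SD, n = 3; exact permutation test, two-sided, p = 0.2, where 3 rats against 3 cannot give less than 0.1).

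Markers of immune cells were present in epithelial nuclei of both groups. The 7 neutrophil markers summed to between 6.46 and 15.6 CPM in CON and between 9.35 and 170 CPM in SAP, with all 7 detected and higher on average in SAP. For the 10 T cell markers the sums were 359 to 469 and 230 to 584 CPM, for the 8 B cell markers 8.21 to 139 and 14.9 to 373 CPM, for the 8 macrophage markers 40.5 to 58.8 and 27.1 to 120 CPM, and for Ptprc, the pan-leukocyte marker, 46.7 to 95.7 and 31.2 to 211 CPM. All markers of these lists were detected. With only those epithelial nuclei that held 0 UMIs of these markers, Tap2 gave a log2 fold change of 0.92 (unadjusted p = 0.0209 and adjusted p = 0.285 in edgeR) and Psmb9 one of 0.23.

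In immune nuclei 0 members were called, against 0% of 12882 genes, 0 had an unadjusted p under 0.05 in edgeR with a higher value in SAP, against 3.38%, and 0 lay without overlap and higher in SAP, against 4.01%. The fitted values were higher in SAP for 7 of 8, against 54.4% of genes, with a median of 0.13, against 0.045 over all genes. Tap2 had the largest, 0.66 (standard error 0.35), at 28.2, 38.4 and 68.6 CPM in CON and 47.7, 60.7 and 89.3 CPM in SAP, with overlap, followed by Psmb10 with 0.58 (standard error 0.35). With the replicate number as a block, the unadjusted p of Tap2 in edgeR was 0.0316 and its adjusted p 0.462. In that fit 1 of the 8 had an unadjusted p under 0.05 in edgeR with a higher value in SAP, against 5.75% of genes, and 8 of 8 were higher, Psmb9 having turned from −0.016 to 0.045. Nlrc5 hardly varied between rats there, with 217, 232 and 202 CPM in CON and 214, 229 and 211 CPM in SAP. In stromal nuclei 0 members were called, against 0.00804% of 12435 genes, and 0 had an unadjusted p under 0.05 in edgeR with a higher value in SAP, against 4.83%. All 8 fitted values were higher in SAP, against 50.6% of genes, with a median of 0.36, against 0.0068 over all genes. With the replicate block 6 of the 8 were higher, against 49.5% of genes, and Tap1 and Nlrc5 stood at −0.0069 and −0.040. Psmb10 alone lay without overlap and higher in SAP, 1 of 8 against 6.26% of genes, at 35.6, 28.6 and 33.8 CPM in CON and 37.6, 51.7 and 44.7 CPM in SAP (log2 fold change 0.49, standard error 0.27). The 7 neutrophil markers summed to between 4.76 and 27.3 CPM in stromal nuclei of CON and between 69.4 and 680 CPM in those of SAP. Of these markers, 6 were higher on average in SAP. Of the other lists there, 3 of 10 T cell, 7 of 8 B cell and 1 of 8 macrophage markers were higher in SAP, as was Ptprc. The sums of these other lists and the values of Ptprc overlapped between the groups. The part of immune markers in the member values of stromal nuclei was not tested.

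Within single classes, 124 of the 136 possible tests could be made, and 0 were called, against 0.00898% of the 144766 tests of all genes. The fitted value was higher in SAP in 85 tests and lower in 39. Over all genes of a class the median log2 fold change ranged from −0.040 in Paneth-like to 0.033 in T-like nuclei. In 5 tests the unadjusted p in edgeR was under 0.05, 4.03% against 7.49% of all tests. In 6 tests the groups lay without overlap and higher in SAP, against 4.83% of all tests, and in 1 without overlap and lower, against 6.5%. The classes are of the same 6 rats, so their tests are not independent.

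Tap2 was the member whose direction varied least over the classes. Its fitted value was higher in SAP in 14 of the 14 classes tested, from 0.24 in goblet-like to 1.01 in tuft-like nuclei, and 11.2% of the 5701 genes tested in the same 14 classes were higher in all of them. In stem-like nuclei it stood at 23.8, 26.5 and 24.8 CPM in CON and at 33.1, 43.2 and 47.3 CPM in SAP, without overlap, as were 5.96% of the genes tested there in that direction (log2 fold change 0.76, standard error 0.28, unadjusted p = 0.0203 and adjusted p = 0.526 in edgeR). The CON values, close together, rested on 35 to 51 UMIs a library and the SAP values on 13 to 40. Paneth-like nuclei gave 0.92 (standard error 0.40) and cluster 1, an unnamed epithelial cluster, 0.83 (standard error 0.32), both with overlap. In B-like, NAC-like and endothelial-like nuclei Tap2 had too few UMIs to be tested. For the other members the number of classes higher in SAP was 15 of 17 for B2m, 12 of 16 for Nlrc5, 11 of 16 for Tapbp, 10 of 15 for Psmb8, 10 of 14 for Psmb10, 7 of 16 for Tap1 and 6 of 16 for Psmb9. Of the genes tested in the same classes, 23.7% were higher in at least as many as B2m and 34.2% as Nlrc5. For Tapbp, Psmb8 and Psmb10 these shares were 39.1%, 41.8% and 38.6%, and for Tap1 and Psmb9 55.5% and 60.2%.

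**Figure D2:**
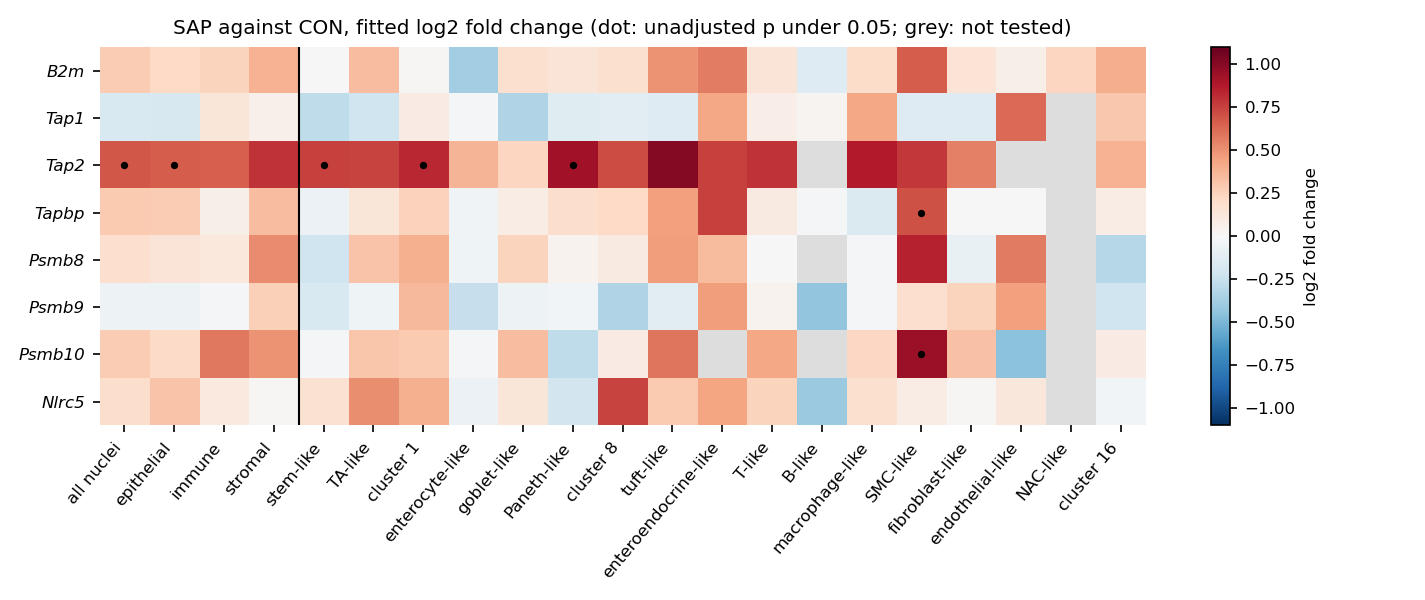
Fitted log2 fold change of SAP over CON for each member (rows) in all nuclei, the 3 compartments and 17 classes or clusters (columns), coloured from −1.1 (blue) to 1.1 (red), with dots where the unadjusted p is under 0.05 and grey where a gene was not tested. The Tap2 row is red in each of the 14 classes tested, and in SMC-like nuclei Tapbp, Psmb8 and Psmb10 are red as well.

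SMC-like nuclei held 3 of the 6 tests without overlap and higher in SAP, where 7.66% of genes were. Tapbp stood there at 73.4, 66.8 and 73.1 CPM in CON and at 106, 150 and 85.4 CPM in SAP (log2 fold change 0.70, standard error 0.31, unadjusted p = 0.0490 and adjusted p = 0.460 in edgeR). Psmb10 stood at 23.9, 18.6 and 25.9 CPM in CON and at 35.2, 59.4 and 39.0 CPM in SAP (log2 fold change 0.95, standard error 0.39). For Psmb8 the values were 38.3, 14.8 and 29.4 CPM in CON and 41.1, 75.1 and 40.0 CPM in SAP (log2 fold change 0.85, standard error 0.45). In each of these genes SAP rat 2 was the highest, and the values of the subunits rested on 4 to 38 UMIs a library. Psmb9, the remaining immunoproteasome subunit, stood at 57.4 ± 8.29 and 62.0 ± 9.59 CPM (SD, n = 3). Proteasome genes outside the members were higher in SAP there as well, where 4530 of 8824 genes were. These were 3 of 3 standard catalytic subunits (median log2 fold change 0.46), 11 of 11 other core subunits (0.44) and 5 of 5 activators and assembly factors (0.60). Ribosomal protein genes took 3.44%, 0.891% and 1.30% of the UMIs there in CON rats and 5.03%, 2.92% and 2.36% in SAP rats. The part of this share in the proteasome and member values was not tested. The other tests without overlap and higher in SAP were Tap2 in stem-like, Tapbp in Paneth-like and Nlrc5 in T-like nuclei. Tapbp stood at 61.5 ± 7.62 and 85.3 ± 9.83 CPM (SD, n = 3) in Paneth-like nuclei, where 363 of 8329 genes lay likewise. Its fitted log2 fold change was only 0.20 (standard error 0.39, unadjusted p = 0.630 and adjusted p = 0.999 in edgeR). In T-like nuclei 3.78% of genes lay without overlap and higher. Nlrc5 in B-like nuclei lay without overlap and lower in SAP, as did 6.17% of genes there.

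The other genes of the pathway were taken from lists fixed by name, and 0 of their genes were called in any compartment. Among the lists of class I pathway genes, the heavy chains, the partners of B2m, had the largest median log2 fold change in each compartment. MHC class II genes, taken for comparison, had medians of 1.39 over all nuclei and 1.33 in stromal nuclei, against 1.38 and 0.883 for the heavy chains. In epithelial and immune nuclei the heavy chains had the larger median. Of 35 RT1 class I symbols, 24 could be tested in epithelial nuclei, where 49.8% of all genes were higher in SAP. Of the 24, 20 were higher in SAP and 4 lower, and their median was 1.41 on the log2 scale. By unadjusted p in edgeR, 11 passed 0.05 with a higher value, against 5.1% of all genes, and 2 with a lower one. Without overlap and higher in SAP were 10 of the 24, against 5.45% of all genes. Without overlap and lower were 2, as were 873 of the 17123 genes tested. RT1-A2, a classical heavy chain, stood at 891, 473 and 785 CPM in CON and at 1861, 2761 and 1043 CPM in SAP, without overlap (fitted log2 fold change 1.36 with a standard error of 0.53, adjusted p = 0.421 in edgeR). RT1-CE16 stood at 81.8, 54.2 and 65.6 CPM in CON and at 426, 1007 and 94.1 CPM in SAP (log2 fold change 2.93, standard error 0.84). Against these, RT1-N2 and RT1-T24-1, non-classical genes, gave −1.74 (standard error 0.53) and −1.57 (standard error 0.43), both without overlap and lower in SAP. RT1 copies are near-identical and the stock is outbred, so how reads were divided among the copies is uncertain.

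Summed over the 35 symbols, the heavy chains stood at 2411, 1843 and 3033 CPM in CON and at 6689, 12217 and 3574 CPM in SAP over all nuclei. The groups did not overlap, and the mean was 3.08 times higher in SAP. Reads that match several copies may be lost from such a sum, and their part in it was not tested. The stock is outbred, and the part that differences between rats in their RT1 genes have in this sum was not tested either. The ratio was 3.23 in epithelial, 2.34 in immune and 2.67 in stromal nuclei, without overlap in any of them. B2m, their light chain, did not separate the groups, and summed heavy chains came to 1.79, 4.65 and 4.98 times B2m in CON rats and to 4.77, 14.1 and 4.91 times B2m in SAP rats, with SAP rat 2 far above the others and overlap between the groups. MHC class II genes, for comparison, were higher in SAP in 8 of 8 in epithelial nuclei, against 49.8% of all genes, with a median of 1.39. Of the 8, 6 lay without overlap and higher in SAP, against 5.45% of all genes. Cd74, the invariant chain of class II, stood at 546 ± 254 and 1395 ± 391 CPM (SD, n = 3; log2 fold change 1.30, standard error 0.54).

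Peptide trimming and loading genes had a median log2 fold change of −0.09 in epithelial nuclei, with 4 of 12 higher, against 49.8% of all genes. Tapbpl, a relative of tapasin, was the one without overlap among them, 1 of 12 against 5.45% of all genes in that direction. It stood at 9.23 ± 0.35 and 15.1 ± 6.00 CPM (SD, n = 3; log2 fold change 0.71, standard error 0.41). The standard catalytic subunits had a median of 0.0077 (2 of 3 higher), the other core subunits of the proteasome −0.10 (5 of 11) and the activators and assembly factors 0.0037 (3 of 5). Among stromal nuclei these lists had medians of 0.36, 0.26 and 0.58, next to 0.36 for the members, with 10 of the 11 core subunits higher in SAP, against 50.6% of all genes there. Ribosomal protein genes took 2.79%, 0.916% and 1.41% of stromal UMIs in CON rats and 4.74%, 2.01% and 2.59% in SAP rats. The part of this share in the stromal values was not tested. Regulators of class I transcription were lower in SAP in 11 of 12 in epithelial nuclei and higher in 1, against 49.8% of all genes higher, with a median of −0.17. Of the 6 interferon gamma signalling genes tested 5 were higher, among them the receptor chain Ifngr1 (124 ± 8.82 and 198 ± 43.0 CPM) and the feedback inhibitor Socs1 (6.56 ± 2.82 and 12.1 ± 2.72 CPM). Both lay without overlap, 2 of 6 against 5.45% of all genes higher in SAP. Their unadjusted p in edgeR was 0.0450 and 0.0413, and 5.1% of all genes were under 0.05 and higher.

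**Figure D3:**
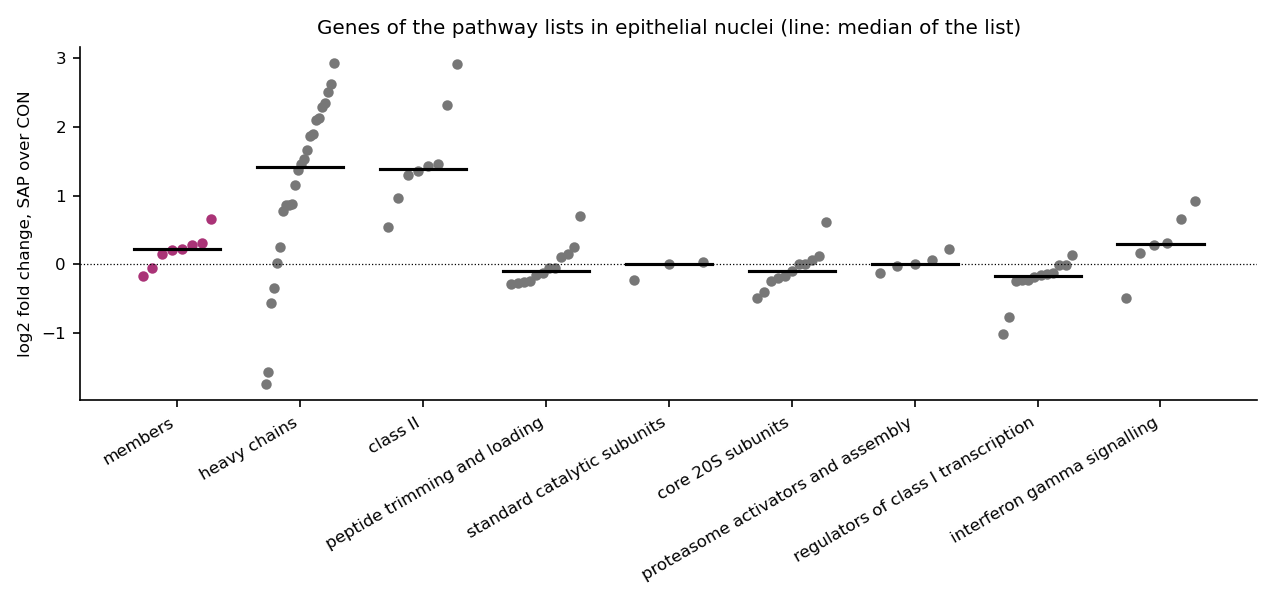
Fitted log2 fold change of SAP over CON in epithelial nuclei for each tested gene (points) of the 8 members and of 8 other lists (columns), with a line at the median of each list. The 8 members lie between −0.17 and 0.66, with a median of 0.22. The medians of the class I heavy chains and the class II genes are 1.41 and 1.39. Those of the remaining lists run from −0.17 (regulators of class I transcription) to 0.29 (interferon gamma signalling).

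Whether the SAP difference was unequal between compartments was tested on the difference of log2 CPM between compartments within each rat, with limma over all genes. For epithelial less immune nuclei 0 of the 8 members were called, against 0.0506% of genes, for epithelial less stromal nuclei 0, against 0.0101%, and for immune less stromal nuclei 0, against 0%. Of the 24 tests of members, 0 had an unadjusted p under 0.05 in limma, the lowest being 0.111 for Psmb8, immune less stromal. In 2 of the 24 the groups did not overlap (exact permutation test, two-sided, p = 0.1, the smallest possible). B2m, epithelial less immune, was 0.31 larger in SAP than in CON on the log2 scale (standard error 0.31), 1 member of 8 without overlap against 6.31% of genes, and without CON rat 2 it was 0.11. Psmb8, immune less stromal, was −0.55 in SAP relative to CON (standard error 0.31), 1 of 8 against 11% of genes, and without CON rat 2 it was −0.20. For epithelial less stromal nuclei 0 of 8 lay without overlap, against 11.1% of genes. With DESeq2, the tool of the study's methods, 0 members were called over all nuclei and 0 in epithelial nuclei, against 0.682% and 0.979% of genes. In immune nuclei, stromal nuclei and the single classes 0 members were called as well, where 48, 146 and 664 genes were.

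Each member had its own order of classes when read on the means of the CON rats. B2m was highest in enterocyte-like nuclei, at 2399 CPM, with 4915, 613 and 1670 CPM in CON rats 1, 2 and 3, and lowest in cluster 16, at 426 CPM. In all 6 rats its level in enterocyte-like nuclei was above that in 15 of the 16 other classes. Tapbp was also highest in enterocyte-like nuclei, at 189 CPM, Tap1 in TA-like nuclei, at 145 CPM, and Tap2 in B-like nuclei, at 51.3 CPM. Over all 6 rats these top classes were not always above the next. Tapbp was higher in enterocyte-like than in B-like nuclei in 5 of 6 rats. Tap1 was higher in TA-like than in T-like nuclei in 2 of 6, and Tap2 in B-like than in enterocyte-like nuclei in 3 of 6. In B-like nuclei Tap2 rested on too few UMIs for the test of SAP against CON. NAC-like nuclei were lowest for Tap1, Tap2, Tapbp, Psmb8 and Psmb10, at 45.5, 8.05, 53.1, 8.05 and 17.5 CPM. These levels rested on few UMIs, 1, 0 and 3 in CON rats 1, 2 and 3 for both Tap2 and Psmb8, 2, 0 and 7 for Psmb10, 3, 3 and 15 for Tap1 and 5, 2 and 18 for Tapbp.

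All 3 immunoproteasome subunits were highest in cluster 8. Psmb8 stood there at 96.6 ± 46.0 CPM (SD, n = 3), Psmb9 at 157 ± 26.9 CPM and Psmb10 at 71.8 CPM. Their shares beside the standard subunits were not all high there. In CON rats Psmb8 made up 61.8% of the UMIs of Psmb8 and Psmb5 in cluster 8, against 70.2% in all epithelial nuclei. Psmb9 made up 77.4% of those of Psmb9 and Psmb6, against 84.5%, and Psmb10 56.8% of those of Psmb10 and Psmb7, against 41.0%. In all 6 rats Psmb8 was higher in cluster 8 than in each of the 16 other classes, Psmb9 than in 14 and Psmb10 than in 13. Nlrc5 had its lowest level in this cluster, at 51.4 CPM, and its highest in T-like nuclei, at 228 CPM, which lay above 13 other classes in all 6 rats. Cluster 8 was an epithelial cluster of 1437 nuclei between the Paneth and goblet marker profiles and so without a name. Its leading genes were those of ribosomal proteins, which took 5.46% ± 2.13 of its UMIs (SD, n = 6), against means of 1.20% to 2.66% in the other classes, and the part of this in its member levels was not tested.

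**Figure D4:**
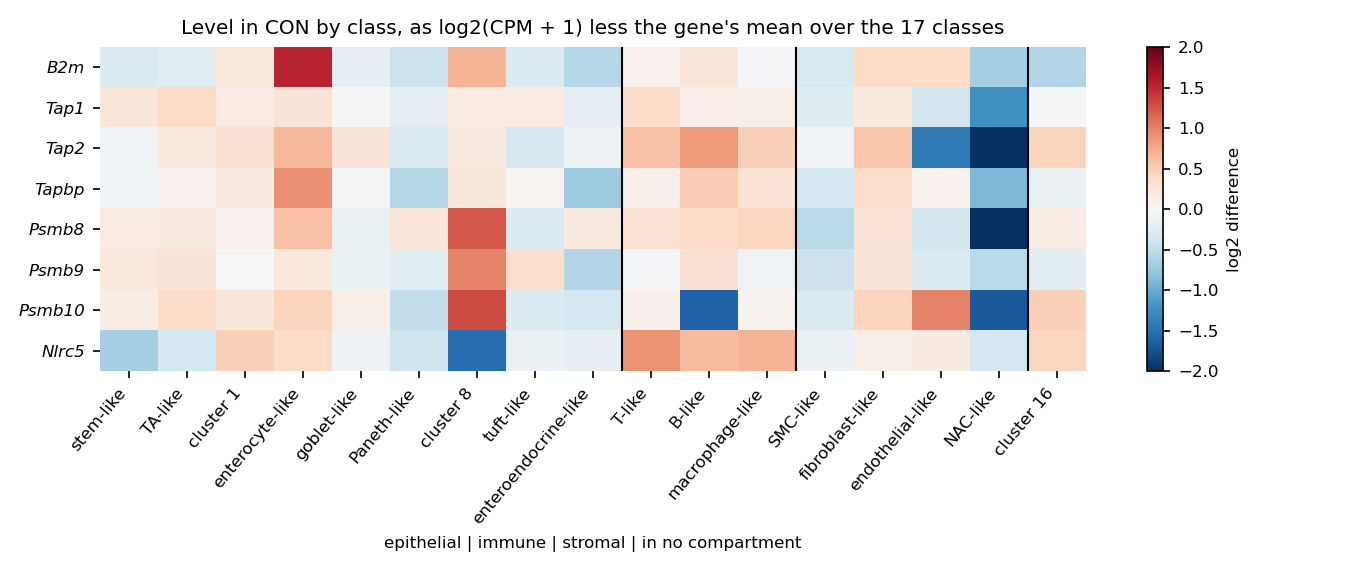
Mean level in CON rats of each member (rows) in 17 classes or clusters (columns), as log2(CPM + 1) less the gene's mean over the classes, coloured from −2 (blue) to 2 (red) with values beyond drawn in the end colours. B2m and Tapbp are reddest in enterocyte-like nuclei, the 3 immunoproteasome subunits in cluster 8 and Nlrc5 in T-like nuclei, and NAC-like nuclei are blue for every member.

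Whether neighbours in these orders differed could hardly be decided here. For each member 0 of the 16 pairs of neighbours had an adjusted p under 0.05 (exact sign-flip permutation test over 6 rats, two-sided). The smallest possible unadjusted p was 0.03125, and from 0 to 2 pairs had it. An adjusted p under 0.05 would have needed most of the 16 pairs at that value. The CON rats that set the order were also among the 6 rats tested. Over all 136 pairs of classes the difference went the same way in all 6 rats in 57 for B2m and 57 for Nlrc5, which is 41.9% of pairs, and in 42 for Tapbp, 38 for Psmb9, 34 for Psmb8, 23 for Psmb10, 21 for Tap1 and 18 for Tap2. The median gene among 12707 had 21.3%. Psmb10, Tap1 and Tap2 lay below it, at 16.9%, 15.4% and 13.2%, and the other members above it. Once adjusted over the 136 pairs of a member, the smallest p by this exact test was 0.0746. An adjusted p under 0.05 would have needed most of the 136 pairs to go the same way in all 6 rats.

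Between compartments, Nlrc5 and Tap2 were higher in immune nuclei. Nlrc5 was 1.78 times higher in immune than in epithelial nuclei and 1.88 times higher than in stromal nuclei, and Tap2 1.36 and 1.55 times higher, each in 6 of 6 rats (exact sign-flip permutation test, p = 0.03125, adjusted p = 0.0469 over the 3 pairs of a gene). Tap1 was 1.44 times higher in immune than in stromal nuclei, again in 6 of 6 rats (exact p = 0.03125, adjusted p = 0.0938). Stromal nuclei had lower levels than epithelial nuclei in 6 of 6 rats for B2m (0.824 times), Tapbp (0.837 times), Psmb8 (0.777 times) and Psmb9 (0.843 times), with the same exact p and an adjusted p of 0.0938. Of the 24 comparisons of the 8 members, 9 had an exact p of 0.03125, and adjusted over all 24 this p was 0.0833. Psmb10 stood at 0.884 times the epithelial level in immune nuclei and 0.973 times in stromal nuclei, and none of its pairs of compartments was ordered the same way in all 6 rats.

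The share of the immunoproteasome subunit among the UMIs of a subunit pair does not depend on the library total. In epithelial nuclei Psmb8 made up 70.0%, 70.5% and 70.2% of the UMIs of Psmb8 and Psmb5 in CON and 66.7%, 79.9% and 70.5% in SAP. The CON rats were nearly equal, the SAP rats lay on both sides of them, and the means were 70.2% ± 0.28 and 72.4% ± 6.79 (SD, n = 3; exact permutation test, two-sided, p = 0.8). Psmb9 made up 84.5% ± 7.89 of the UMIs of Psmb9 and Psmb6 in CON and 81.0% ± 6.25 in SAP (exact permutation p = 0.6), and Psmb10 made up 41.0% ± 6.42 of the UMIs of Psmb10 and Psmb7 in CON and 49.6% ± 10.8 in SAP (exact permutation p = 0.3). Adjusted over the 3 pairs each of these p-values was 0.8. The pairs rested on 426 to 2846 UMIs a library. In immune nuclei the Psmb9 share came to 87.5%, 88.9% and 86.0% in CON rats and to 70.0%, 82.9% and 85.9% in SAP rats, without overlap and lower in SAP (exact permutation p = 0.1, adjusted p = 0.3 over the 3 pairs), on 30 UMIs in SAP rat 1.

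The shares were also compared between compartments, a comparison chosen after the values were seen. The Psmb8 share was 51.4% ± 5.36 in stromal nuclei, 71.3% ± 4.45 in epithelial and 76.4% ± 6.91 in immune nuclei (SD, n = 6). It was lower in stromal than in either other compartment in 6 of 6 rats (exact sign-flip permutation test, p = 0.03125, adjusted p = 0.0703 over 9 comparisons). The Psmb9 share followed the same order of stromal below the others in 6 of 6 rats, with 66.6% ± 8.84, 82.8% ± 6.66 and 83.5% ± 6.92 and the same exact p-values. In the smallest library the stromal shares rested on 24 UMIs for the Psmb8 pair and 39 for the Psmb9 pair. The immune shares rested on 34 and 30 UMIs in the smallest. The Psmb10 share was 39.9% ± 7.84 in stromal, 45.3% ± 9.26 in epithelial and 37.7% ± 10.6 in immune nuclei, and no pair of compartments was ordered the same way in all 6 rats.

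**Figure D5:**
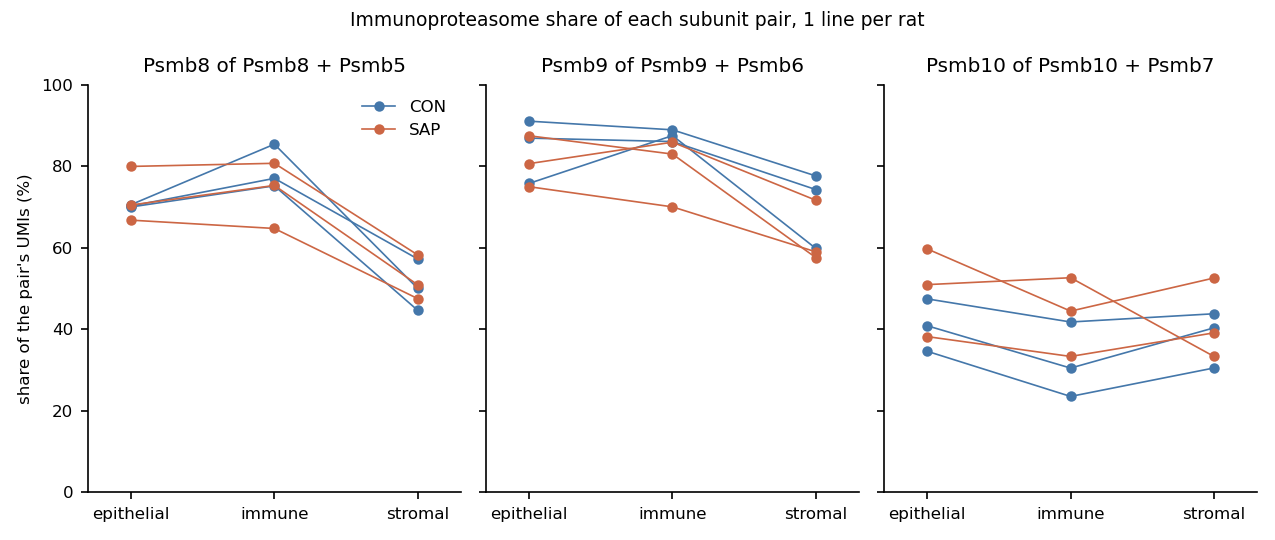
Share of the immunoproteasome subunit among the UMIs of each subunit pair (percent, 0 to 100) in epithelial, immune and stromal nuclei, with 1 line per rat, blue for CON and red for SAP. The stromal points of the Psmb8 and Psmb9 panels lie below the epithelial and immune points of the same rat in 6 of 6 rats, while CON and SAP overlap everywhere but in the immune points of Psmb9.

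The patterns of the members over the 17 classes, as log2 levels in CON, were compared as a description, and the classes share their 3 libraries. The correlations of the 28 pairs of members ranged from −0.35 for Psmb9 and Nlrc5 to 0.86 for Tap1 and Tap2, with a median of 0.48. Outside the pathway, the 5 genes most like the mean pattern of the 8, among 13020 genes, were Tpm3 and Metrnl (r = 0.91), Fuca1 (r = 0.91), Sri and Lrp10 (r = 0.88). NAC-like nuclei, with few UMIs, were the lowest class for each of these 5 genes and for Tap1, Tap2, Tapbp, Psmb8 and Psmb10. The part of this class in the correlations was not tested. Among the members, each of which is part of the mean, the mean pattern correlated most with Tapbp (r = 0.91) and least with Nlrc5 (r = 0.24).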

How the data were processed

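Single nuclei from ileal tissue were profiled in 3 CON and 3 SAP rats, with a library for each rat. The deposited tables hold raw UMI counts by gene and barcode, which the authors made with dnbc4tools and did not normalize, and every value is a whole number. The submitters' processing notes name Seurat 4.3.0 and the build mRatBN7.2, and use of strand in counting is not given in the sources used here. Nuclei were kept at 1200 UMIs, 500 genes and at most 5% mitochondrial UMIs, and their UMIs summed to 5549260 to 28771508 per library, which limits low genes most.

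Counts were log-normalized with scanpy 1.11.5, and 1970 variable genes, without the members, other MHC and interferon genes, gave 30 principal components. These were integrated with a re-implementation of Harmony and clustered with Leiden (20 neighbours, resolution 0.8). A class needed a mean log2 marker ratio of 0.5, a lead of 0.5 and 3 markers. Unnamed clusters joined the compartment of the closest named cluster at a correlation of 0.55, a limit set after the clusters were seen, and 3 clusters, with a mean of 1.57% of the nuclei in CON rats and 2.25% in SAP rats, joined none. Scrublet's own threshold marked 0% of nuclei, so 5% of each library was marked by rank of score (2048 nuclei). These nuclei were kept, and removed as an alternative.

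UMIs were summed per rat and class, with at least 10 nuclei in every library, and tested with edgeR 4.0.16 (TMM, filterByExpr, robust quasi-likelihood) in R 4.3.3, with Benjamini-Hochberg adjustment over all genes tested in a fit. The rat is the unit. DESeq2 1.42.0 was an alternative, and limma 3.58.1 tested differences between compartments on log2(CPM + 1). Scripts were tested on simulated data. The members and lists were chosen with earlier results of these data known, and the genes named are the members, the genes of the pathway lists and the 5 most like in pattern. Same-numbered CON and SAP rats were checked for pairing, since the labels state none. Their deviations from the group means correlated at 0.183 to 0.577 over all nuclei and 0.243 to 0.410 over immune nuclei. Over epithelial and stromal nuclei the values were 0.0502 to 0.589 and 0.0958 to 0.242. Rats of different number reached at most 0.144, −0.0596, 0.177 and 0.0859 in all, immune, epithelial and stromal nuclei. Same-numbered rats thus lay above all others except in epithelial nuclei. Deviations from a group mean cancel within the group, so these correlations depend on each other and cannot decide whether rats were paired. The main fits therefore took no pairs, and the replicate block was an alternative in every compartment. Alternatives were other scalings, no filter, a replicate block, a listing term for the tables with barcodes under 1000 UMIs, a 1% mitochondrial limit, removal of doublets, other clusterings and leaving out each rat. The part of RNA free in the suspension was not tested.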

Additional observations from a re-analysis of the deposited data

Results flagged for a closer look

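Nlrc5 went opposite ways in lymphocyte classes, with every SAP rat above every CON rat in T-like nuclei and below every CON rat in B-like nuclei. In T-like nuclei Nlrc5 stood at 228 ± 0.78 CPM in CON and 257 ± 11.1 CPM in SAP (SD, n = 3), a difference of 0.17 on the log2 scale. In B-like nuclei it stood at 181, 218 and 169 CPM in CON and at 88.2, 159 and 144 CPM in SAP, a difference of −0.57. The difference between the classes within each rat was 0.738 larger in SAP than in CON on the log2 scale. The pair was found because the groups do not overlap in either class, which fixes that they do not overlap in the difference, so the difference was not tested. Without overlap were 3.78% of genes in T-like nuclei, higher in SAP, and 6.17% in B-like nuclei, lower in SAP. The T-like values rest on 752, 116 and 268 UMIs in CON and on 65, 306 and 555 UMIs in SAP. The SD over rats does not show the counting error of the smaller of these. The B-like values rest on 32, 16 and 88 UMIs in CON and on 4, 13 and 234 UMIs in SAP. In edgeR the log2 fold changes were 0.25 (standard error 0.20) and −0.41 (standard error 0.36).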

How the results depend on the processing

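The number of members called was 0 in all 73 counts under alternatives, in all nuclei, in each compartment and over the classes. Of 240 log2 fold changes of members under alternatives, in all and in epithelial nuclei, 209 kept their direction and 31 did not, and Tap2 and Tapbp kept theirs in 30 of 30 each. Tap2 ranged from 0.48 to 0.92, with adjusted p from 0.268 to 1.00. The replicate block turned Psmb9 to 0.0020 over all nuclei and 0.012 in epithelial nuclei and changed no other direction there and no call of a member. In immune nuclei the block turned Psmb9 to 0.045, and in stromal nuclei it turned Tap1 to −0.0069 and Nlrc5 to −0.040. Library totals in place of TMM gave 0.012 and 0.042 for Psmb9. At a mitochondrial limit of 1% B2m gave −0.024 over all nuclei and −0.051 in epithelial nuclei, Psmb8 −0.13 and −0.22, and Psmb10 −0.089 in epithelial nuclei. Epithelial nuclei without UMIs of immune markers gave 0.026 for Tap1 and 0.23 for Psmb9. The cause of these turns was not tested. Leaving out each rat gave ranges over all nuclei of −0.14 to 1.27 for B2m, −0.45 to 0.094 for Tap1, −0.082 to 0.89 for Psmb8, −0.26 to 0.31 for Psmb9 and −0.18 to 0.47 for Nlrc5. In epithelial nuclei the ranges were −0.19 to 1.32 for B2m, −0.43 to 0.067 for Tap1, −0.16 to 0.96 for Psmb8, −0.24 to 0.34 for Psmb9 and −0.085 to 0.66 for Nlrc5. B2m and Tap1 turned without CON rat 2 and without SAP rat 1 (B2m in epithelial nuclei also without CON rat 3), Psmb8 without CON rat 2 and without CON rat 3, Psmb9 without CON rat 1 and without SAP rat 1 (over all nuclei also without SAP rat 3) and Nlrc5 without SAP rat 2. The epithelial share of Psmb8 differed between SAP and CON by −1.64 to 4.94 percentage points, and turned without SAP rat 2. Levels between compartments, an alternative added after the data were seen, kept their direction in 140 of 144 values, and those that turned ranged from −0.093 to 0.0098 for Psmb10, stromal less epithelial, from −0.14 to 0.018 for B2m, immune less stromal, and from −0.059 to 0.10 for Psmb9, immune less stromal.

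Counts over all genes moved more. DESeq2 called 192 genes over all nuclei, 268 in epithelial, 48 in immune and 146 in stromal nuclei and 664 over the classes, against 0, 0, 0, 1 and 13 with edgeR. With no filter edgeR called 0, 1, 25, 458 and 1883, with the replicate block 0, 0, 6, 0 and 132, with library totals 0, 1, 0, 1 and 150, and with the listing term 0, 0, 0, 0 and 7. Without doublets 48 were called over the classes, without CON rat 3 there were 173, without SAP rat 3 there were 186 and without SAP rat 1 there were 5. Clustering without integration left 10 classes to test (38 genes called), resolution 0.4 left 15, and the 1% limit left 8 (6 called). With 3 rats a group, standard errors of 0.28 to 0.62 on the log2 scale set what could be told apart over all nuclei.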

Other observations

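Classes with too few nuclei for a test were read as UMIs pooled over the 3 rats of a group, with exact Poisson 95% intervals that cover counting error only. In neutrophil-like nuclei, of which there were 44 in CON and 92 in SAP, B2m stood at 953 CPM (751 to 1193) in CON and 1574 CPM (1430 to 1730) in SAP, and Nlrc5 at 87.8 CPM (35.3 to 181) and 102 CPM (67.6 to 147). Tap2 there rested on 7 and 9 UMIs, at 87.8 CPM (35.3 to 181) and 32.7 CPM (15.0 to 62.1). In mesothelial-like nuclei, the covering cells of the gut wall, 109 in CON and 43 in SAP, B2m stood at 731 CPM (640 to 831) and 421 CPM (292 to 589). Fat-like nuclei held B2m at 516 CPM (413 to 638) in CON and 457 CPM (320 to 633) in SAP, from 65 and 34 nuclei. The rats entered these pools in unequal numbers, with 60, 3 and 46 mesothelial-like nuclei from CON rats 1, 2 and 3 and 5, 6 and 32 from the SAP rats, and with 10, 8 and 26 neutrophil-like nuclei from the CON rats and 29, 9 and 54 from the SAP rats. Over all nuclei B2m was highest among CON rats in rat 1 and lowest among SAP rats in rat 3. These pooled values have no replicate check.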
